A study of Homo sapiens with 4 samples.

Results

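The genes described here encode proteins of the red cell membrane and carriers of blood group antigens. They were chosen by name, and each symbol was matched to a deposited gene identifier through GENCODE release 44. All 8 genes were found among the 58735 genes listed: SPTB, ANK1, EPB41, EPB42, SLC4A1, GYPC, RHAG and KEL. RNA-seq gave their levels in cells labelled NB4, a line grown from a human acute promyelocytic leukemia. There were 2 libraries labelled as the control for GNE-987 and 2 libraries from cells treated with GNE-987 at 25 nM for 24 h. GNE-987 is a bifunctional degrader that brings the BET proteins to a ubiquitin ligase. The libraries of a group carry replicate numbers, and nothing in the labels says that they came from separate cultures, so P values measure the spread between these libraries only.

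The red cell membrane rests on a meshwork of spectrin tetramers, whose beta chain is encoded by SPTB. Ankyrin, encoded by ANK1, ties beta spectrin to band 3, the anion exchanger encoded by SLC4A1, and the EPB42 protein steadies that link. The EPB41 protein ties spectrin to actin and to glycophorin C, the product of GYPC. Glycophorin C carries the Gerbich antigens, the Rh-associated glycoprotein RHAG is needed for Rh antigens to reach the surface, and the KEL protein carries the Kell antigens. Band 3 appears late in red cell maturation, and the EPB42 protein is known from the same mature membrane.

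Values are deposited FPKM, a level per gene length and per library size. The libraries held between 12371057 and 19448255 reads on genes, worked back from the step size of low FPKM values, and the GNE-987 libraries were the shallower pair. Mitochondrially encoded genes took 3.75% and 4.54% of these reads in control and 15.7% and 15.3% with GNE-987. The promyelocyte and granulocyte markers went against the label. Of 12 such markers, 3 had a mean of at least 1 FPKM in control, with summed levels of 11.2 and 13.1 FPKM, and CTSG and ELANE were listed at 0 in both control libraries. MPO was at 0.0246 and 0 FPKM in control. With GNE-987 the summed level of these markers was 75.4 and 79.3 FPKM, and 6 of 12 reached 1 FPKM. Of 15 erythroid markers, 12 had a mean of at least 1 FPKM in control and 12 with GNE-987, but not the same genes. EPOR and HEMGN reached 1 FPKM only in control, and HBB and AHSP only with GNE-987. The summed levels of the erythroid markers were 724 to 731 FPKM in control and 922 to 1046 FPKM with GNE-987. Megakaryocyte markers summed to 2.51 and 2.60 FPKM in control and 14.8 and 15.3 FPKM with GNE-987, and lymphoid markers to 16.2 and 17.2 FPKM against 43.6 and 44.2 FPKM, mostly from CD3D in control and from CD3D and CD79A with GNE-987. All of these lists move with the treatment groups, and their part in the results below was not tested. In bulk RNA, fewer cells of a type and less RNA per cell cannot be told apart.

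In control cells the 8 genes fell into a set with clear expression and a pair that was nearly silent. RHAG stood highest, at 143.5 and 143.3 FPKM, rank 160 of all listed genes by control mean. GYPC followed with 49.4 and 45.0 FPKM, and ANK1 with 28.5 and 30.1 FPKM. These levels did not overlap between neighbours in that order. SPTB was at 8.997 and 10.8 FPKM, EPB41 at 7.38 and 8.29 FPKM and KEL at 7.76 and 7.16 FPKM. SPTB was above both other genes in each control library, while the order of EPB41 and KEL changed between the replicates. EPB42 was at 0.0858 and 0.0893 FPKM, which is 6 reads in each library, and SLC4A1 at 0.0762 and 0.0793 FPKM, which is 9 reads in each. The control cells thus had RNA for the spectrin and ankyrin skeleton, glycophorin C, RHAG and KEL, and almost none for band 3 or its partner. Per length, RHAG was at 1884 and 1807 times the level of SLC4A1, with the counting error of 9 reads behind each of these ratios.

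With GNE-987 the order at the top was kept. RHAG was at 85.6 and 81.0 FPKM, GYPC at 34.5 and 35.5 FPKM and ANK1 at 14.2 and 14.1 FPKM. Below them, SPTB was at 5.97 and 5.92 FPKM, KEL at 6.28 and 5.13 FPKM and EPB41 at 5.28 and 4.35 FPKM, and the values of KEL spanned those of SPTB. By rank among all listed genes, RHAG moved from 160 to 618, GYPC from 692 to 1391 and ANK1 from 1260 to 2921.

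**Figure D1:**
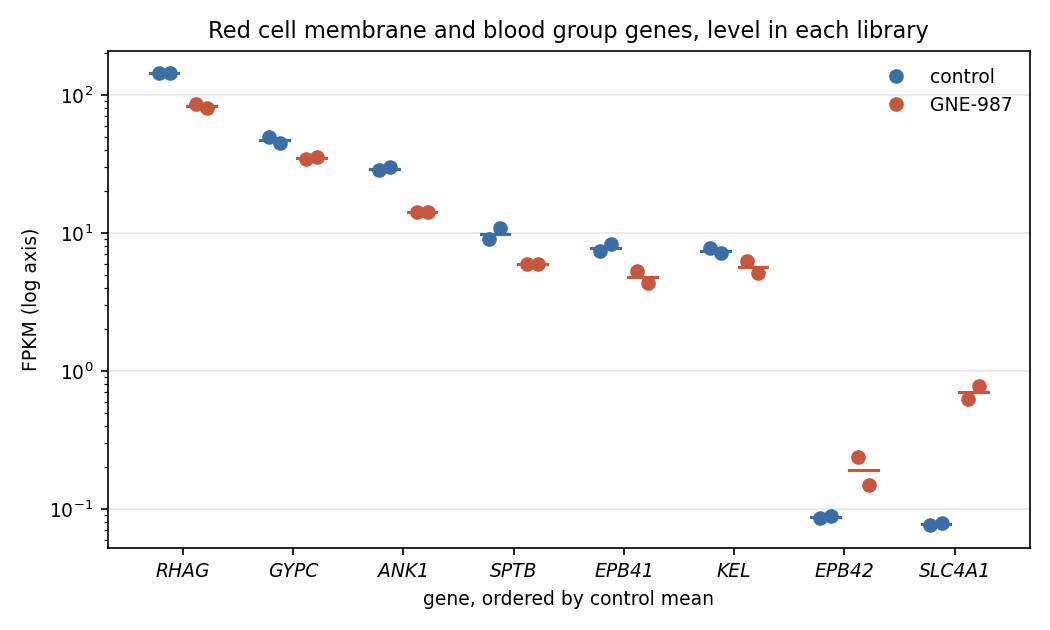
FPKM of the 8 genes in each library on a log axis, ordered by control mean; points are libraries and short lines are group means (n = 2 libraries per group). For each of the 6 expressed genes both GNE-987 points lie under both control points, and EPB42 and SLC4A1 lie below 1 FPKM in every library.

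To see what lies before these genes, the 250 bases ahead of the annotated start were read from RefSeq promoters on GRCh38.p14. Entries were found for 6 of the 8 genes and not for ANK1 and SLC4A1, and SPTB and EPB41 have 2 annotated starts each. They are shown so that 4 of the expressed genes can be set beside a nearly silent one for the letters GATA, which erythroid GATA factors are known to bind. Capitals mark GATA with A or T just before it and A or G just after it, on either strand. Annotated exon bases at the end of a window are left out, which shortens that of GYPC to 225 bases. The windows are chr6:49636840-49637089 (minus strand) for RHAG, chr7:142962364-142962613 (minus strand) for KEL, chr2:126655908-126656132 (plus strand) for GYPC, chr14:64879908-64880157 (minus strand) for the upstream start of SPTB, and chr15:43221019-43221268 (minus strand) for EPB42, the nearly silent gene of the 5.
RHAG: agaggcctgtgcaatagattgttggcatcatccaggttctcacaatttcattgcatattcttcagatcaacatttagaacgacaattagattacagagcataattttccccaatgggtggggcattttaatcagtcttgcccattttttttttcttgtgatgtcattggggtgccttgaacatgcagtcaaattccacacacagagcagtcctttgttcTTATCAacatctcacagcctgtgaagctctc
KEL: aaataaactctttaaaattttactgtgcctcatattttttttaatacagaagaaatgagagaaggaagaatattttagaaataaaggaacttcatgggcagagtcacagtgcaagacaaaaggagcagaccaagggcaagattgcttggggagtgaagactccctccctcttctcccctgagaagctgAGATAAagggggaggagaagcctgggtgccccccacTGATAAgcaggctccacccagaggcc
GYPC: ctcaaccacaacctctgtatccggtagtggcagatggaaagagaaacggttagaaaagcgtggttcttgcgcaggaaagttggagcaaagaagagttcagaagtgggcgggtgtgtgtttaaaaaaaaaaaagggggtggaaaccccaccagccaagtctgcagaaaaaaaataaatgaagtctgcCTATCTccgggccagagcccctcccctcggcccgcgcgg
SPTB: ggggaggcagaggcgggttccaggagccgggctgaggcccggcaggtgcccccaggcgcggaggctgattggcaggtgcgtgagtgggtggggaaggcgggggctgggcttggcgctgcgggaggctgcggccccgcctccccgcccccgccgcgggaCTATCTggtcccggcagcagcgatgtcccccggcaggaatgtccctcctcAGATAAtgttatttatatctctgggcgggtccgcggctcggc
EPB42: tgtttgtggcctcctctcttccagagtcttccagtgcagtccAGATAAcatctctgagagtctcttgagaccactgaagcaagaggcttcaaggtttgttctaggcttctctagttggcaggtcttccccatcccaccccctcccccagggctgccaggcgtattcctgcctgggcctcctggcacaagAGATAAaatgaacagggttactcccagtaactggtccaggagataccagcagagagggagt
RHAG and GYPC held 1 match each, and KEL, SPTB at its upstream start and EPB42 held 2 each. Counted back from the last printed base, which is base 1, the match began at base 31 in RHAG, 62 and 26 in KEL, 92 and 42 in SPTB, 39 in GYPC, and 208 and 61 in EPB42. EPB41 held 1 match at its upstream start, and the downstream starts of SPTB and EPB41 held 0. Of 35116 promoters in the table, 22.3% held at least 1 match in the same window. EPB42, with as many matches as KEL, had 6 reads in each control library. A match is a run of letters and does not show binding.
The letters CCNCNCCC, a loose form of the CACCC box on either strand, were in each of the 8 windows and in 53.4% of all promoters. E-box letters, CANNTG, which read the same on both strands, were in 61.8% of all promoters, and the windows of RHAG, KEL, EPB42 and the downstream start of EPB41 held 0 of them.

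GNE-987 treatment was compared with control in a fit across the 16668 genes whose mean reached 0.5 FPKM, on log2(FPKM + 0.1) with limma. Calls took the thresholds of the study's methods, P under 0.05 without adjustment together with a fold change above 2 or below 0.5. Of the 8 genes, 6 were tested, and EPB42 and SLC4A1 were under the minimum level. Of the 6, 1 (ANK1) was called lower and 0 were called higher, where 24.9% of all tested genes were called lower and 33.6% higher. The 5 others had P values under 0.05 and fold changes short of the threshold. An unadjusted P value under 0.05 (limma) was found for 13244 of the 16668 tested genes. In all 6 both treated values lay under both control values, as in 41.6% of all tested genes. The opposite order held for 0 of the 6 and for 47.5% of all tested genes. Their median log2 fold change was -0.71, against 0.17 over all tested genes and -0.29 over protein-coding genes.

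ANK1 encodes ankyrin of the red cell. It lies on chromosome 8 of GRCh38 from 41653220 to 41896741 on the minus strand, and its canonical transcript has 43 exons. Its level was 29.3 ± 1.19 FPKM (SD, n = 2) in control and 14.2 ± 0.108 FPKM (SD, n = 2) with GNE-987, a 2.07-fold decrease. On the log2 scale this was -1.04 (standard error 0.0534, adjusted P value 0.000379 with limma and Benjamini-Hochberg). ANK1 is so close to a fold change of 2 that it was no longer called with a pseudocount of 1 (log2 fold change -0.998) or with median-ratio scaling (-0.93). ANK1 overlaps the long noncoding RNA gene ENSG00000260588 on the same strand, which was at 2.36 and 3.17 FPKM in control and 1.22 and 1.02 FPKM with GNE-987. NKX6-3, which begins 2403 bases past the 3′ end of ANK1 on the same strand, had no control value above 0 and was at 1.59 and 1.36 FPKM with GNE-987.

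SPTB encodes beta spectrin, and lies on chromosome 14 from 64746283 to 64879907, minus strand. Its log2 fold change was -0.72 (standard error 0.111, adjusted P value 0.00592 with limma), with a control level 1.66 times that with GNE-987. The control replicates were the wider pair, at 3065 and 3534 reads, and the GNE-987 libraries held 739 and 773. EPB41 on chromosome 1 (28887091 to 29120046, plus strand) had nearly the same difference, with a log2 fold change of -0.70 (standard error 0.132, adjusted P value 0.0109 with limma). For EPB41 the spread between the GNE-987 replicates, 4.81 ± 0.654 FPKM (SD, n = 2), was as large as that between the control replicates, 7.83 ± 0.646 FPKM (SD, n = 2). EPB41 overlaps TMEM200B on the opposite strand, which was at 0.0329 and 0 FPKM in control and 1.68 and 2.02 FPKM with GNE-987. Whether the counting used strand is not given in the sources used here, so reads in a shared stretch could belong to either gene.

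RHAG lies on chromosome 6 from 49605175 to 49636839 on the minus strand, with no annotated gene overlapping it and the nearest protein-coding gene 43.3 kb away. It had the tightest control replicates of the 8 genes relative to its level, 143.4 ± 0.132 FPKM (SD, n = 2), resting on 8893 and 8533 reads. With GNE-987 it was at 83.3 ± 3.28 FPKM (SD, n = 2), from 1926 and 1923 reads. Its log2 fold change was -0.78 (standard error 0.0453, adjusted P value 0.000479 with limma). The difference is many times the spread between replicates and yet under the fold threshold.
GYPC on chromosome 2 (126656133 to 126696667, plus strand) showed a smaller difference, from 47.2 ± 3.09 FPKM to 35.05 ± 0.708 FPKM (SD, n = 2 each). Its log2 fold change was -0.43 (standard error 0.0635, adjusted P value 0.00533 with limma).
KEL on chromosome 7 (142941114 to 142962363, minus strand) encodes an endopeptidase of the membrane. It had the smallest difference, from 7.46 ± 0.427 FPKM to 5.71 ± 0.818 FPKM (SD, n = 2 each), with a log2 fold change of -0.39 and a standard error of 0.128. Its unadjusted P value was 0.0418 and its adjusted P value 0.0535 (limma), so KEL did not pass after adjustment over all tested genes. The 5 other tested genes did, where 77.6% of all tested genes passed in either direction and 36.1% passed and were lower. Leaving out 1 library leaves a group of 1, which is then assumed to vary like the other group. In these fits ANK1 and RHAG passed each time. SPTB did not pass without GNE-987 replicate 1 or 2 (adjusted P values 0.0928 and 0.095, limma), nor did GYPC (0.0839 and 0.0738), and EPB41 did not without control replicate 2 or GNE-987 replicate 2 (0.0782 and 0.0751). KEL rests on the fewest reads of the 6, 711 and 630 in control and 209 and 180 with GNE-987.

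SLC4A1, on chromosome 17 from 44248390 to 44268141 on the minus strand, went the other way at a very low level. It was at 0.0762 and 0.0793 FPKM in control and at 0.630 and 0.773 FPKM with GNE-987, which is 9 and 9 reads against 27 and 35 reads. The groups did not overlap in FPKM or in reads. In a fit without a minimum level, over 32895 genes, its log2 fold change was 2.17 (standard error 0.263, adjusted P value 0.00784 with limma), and it was called higher, as were 26.6% of the genes in that fit. In RPM, which scales reads by the total of reads on genes, SLC4A1 stood at 0.465 RPM in control and 2.45 RPM with GNE-987, a 5.27-fold increase. The genes beside it were UBTF, at 22.6 and 24.7 FPKM in control and 6.53 and 7.10 FPKM with GNE-987, and RUNDC3A, at 0.142 and 0.1198 FPKM in control and 1.61 and 1.94 FPKM with GNE-987. Even after treatment, SLC4A1 stayed below 1 FPKM.
EPB42, on chromosome 15 from 43197227 to 43221018 on the minus strand, was at 0.236 and 0.149 FPKM with GNE-987, above both control libraries in FPKM. In reads it was at 6 and 6 in control and 6 and 4 with GNE-987, so its higher FPKM comes with no more reads from shallower libraries. Its log2 fold change in the fit without a minimum level was 0.63 with an adjusted P value of 0.185 (limma), and no difference was detectable at this depth. EPB42 ends 50 bases from CCNDBP1, which lies on the opposite strand and was at 4.18 and 4.301 FPKM in control and 1.80 and 1.77 FPKM with GNE-987.

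The size of these differences depends on how the libraries are scaled. The deposited values were scaled to 23024012 and 22120718 reads in control, more than the reads on genes, and to 8360488 and 8826052 reads with GNE-987, fewer than the reads on genes. With each library scaled to its reads on genes, all 6 tested genes were called lower, with log2 fold changes between -1.82 for ANK1 and -1.15 for KEL, where 39.9% of all tested genes were called lower. With scaling to GAPDH, which was itself at 398 and 432 FPKM in control and 1501 and 1499 FPKM with GNE-987, all 6 were called lower, as were 58.4% of all tested genes. Quantile normalization called 2 of the 6 lower, RHAG and ANK1, with log2 fold changes of -1.83 and -1.30, where 32.8% of all tested genes were called lower.
Summed over the 8 genes, the deposited values were 245.7 and 244.9 FPKM in control and 152.8 and 146.9 FPKM with GNE-987. In RPM the sums were 1413 and 1422 in control and 499 and 483 with GNE-987, a 2.89-fold decrease.
The order of the genes changed less than the size of the differences. Over all tested genes the median was 0.17 as deposited, 0.29 with median-ratio scaling, -0.24 with quantile normalization, -0.57 with scaling to reads on genes and -1.59 with scaling to GAPDH. Relative to that median, the 6 genes lay between -1.22 for ANK1 and -0.56 for KEL as deposited, between -1.25 and -0.59 with scaling to reads on genes and between -1.29 and -0.62 with scaling to GAPDH. With quantile normalization they lay between -1.59 for RHAG and -0.12 for KEL. All 6 were below the median tested gene under these 5 scalings. Apart from quantile normalization, these scalings differ by a single factor per library, which moves all genes of a library together. The order of the genes and their place relative to the median were thus nearly fixed in advance. Only quantile normalization could change them. The median over protein-coding genes was lower, at -0.29 as deposited, close to KEL (-0.39) and GYPC (-0.43). It was not taken under the other scalings.

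**Figure D2:**
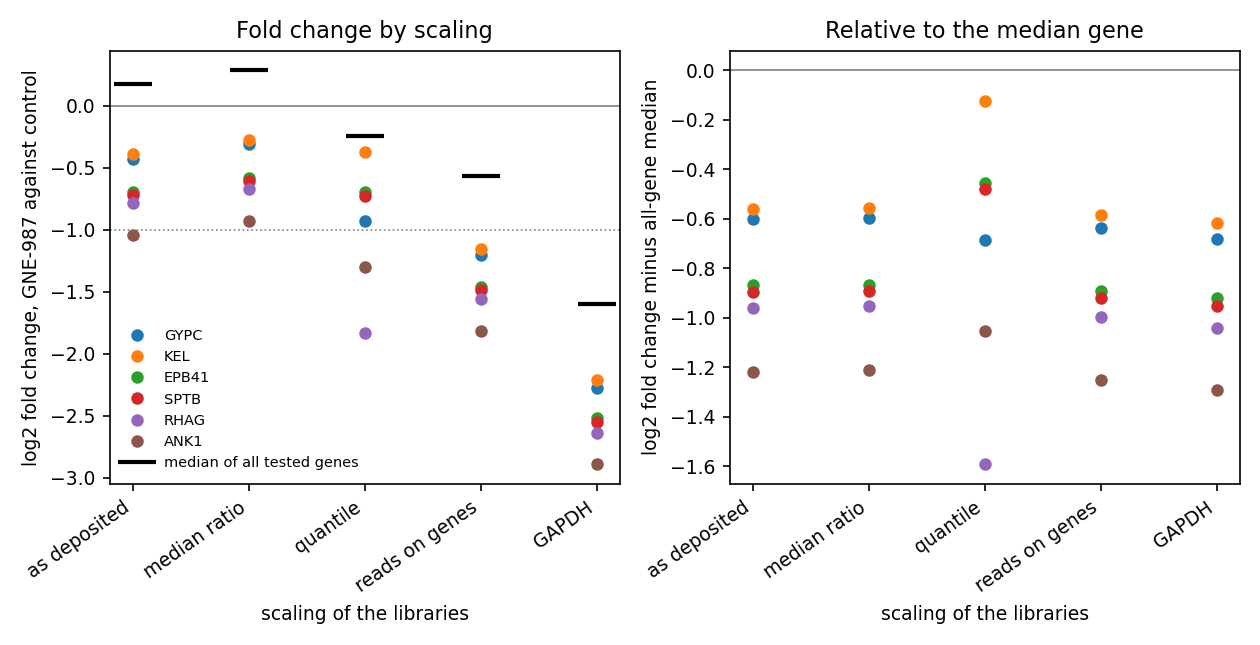
Log2 fold change (treated over control) of the 6 tested genes under 5 scalings of the libraries (left; black bars are the median of all tested genes and the dotted line is a fold change of 0.5) and the same values minus that median (right). All points lie below 0 in both panels, and ANK1 is lowest except with quantile normalization, where RHAG is.

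The other genes of the red cell membrane were examined as 4 lists of 60 genes, of which 43 were tested. As deposited, 16 of the 43 were called lower and 10 higher, with a median log2 fold change of -0.49 against 0.17 over all tested genes. Over all tested genes 24.9% were called lower and 33.6% higher, and 77.6% had an adjusted P value under 0.05 (limma) at any fold change. The counts as deposited of the lists that follow stand beside these shares. With scaling to reads on genes, 24 were called lower and 5 higher, where 39.9% of the 16668 tested genes were called lower and 4181 higher. With scaling to GAPDH, 32 were called lower and 1 higher, where 58.4% of the 16668 tested genes were called lower and 3031 higher.
Among 11 tested genes listed under the membrane skeleton, 4 were called lower and 3 higher. Of the 11, 9 had an adjusted P value under 0.05 (limma) at any fold change. The list and these counts include KLHL3 and TMCC2, which are not established parts of the skeleton. ADD2, encoding beta adducin, fell by 1.87 on the log2 scale, DMTN by 1.36 and TMCC2 by 1.93. ACTB, the actin of the junctions, rose by 1.30, ADD3, encoding gamma adducin, by 1.18 and KLHL3 by 3.61, the last from 0.0330 and 0.0381 FPKM to 1.40 and 1.72 FPKM. For ACTB and ADD3 the higher FPKM came with fewer reads from the shallower GNE-987 libraries. ACTB had 83079 and 82982 reads in control and 76183 and 79746 with GNE-987, and ADD3 938 and 1028 against 837 and 874. The size of their rises thus depends on the scaling. Scaling to reads on genes shifts log2 fold changes by about -0.777, which is smaller than either rise. GAPDH rose by more than either, with a log2 fold change of 1.854. KLHL3 and TMCC2 reached the minimum level only through the group in which they were high, so they could be tested only if they differed. MPP1, the scaffold that joins the EPB41 protein to glycophorin C, was at 44.7 and 43.3 FPKM in control and 45.1 and 43.9 FPKM with GNE-987, with a log2 fold change of 0.02.
ADD2, DMTN and ADD3 were named after their values were seen.

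Of 17 tested blood group carriers and partners, 5 were called lower and 5 higher, and 7 others of the 24 were under the minimum level. GYPE fell, with a log2 fold change of -2.78, and GYPB, at 12.3 and 8.31 FPKM in control and 13.4 and 15.8 FPKM with GNE-987, did not pass (adjusted P value 0.102, limma). GYPE and GYPB are near-identical copies, so the split of reads between them is uncertain. GYPC is of another sequence family. XK, whose protein is bound to the KEL protein at the membrane, fell by 1.19 on the log2 scale, from 7.55 and 8.88 FPKM to 3.51 and 3.57 FPKM. The ratio of KEL to XK was 1.03 and 0.806 in control and 1.79 and 1.44 with GNE-987. Such a ratio is taken within a library and does not depend on the scaling of libraries, and its difference between groups was not tested. RHAG stood at 2.91 and 3.19 times the level of GYPC in control and at 2.48 and 2.28 times with GNE-987.
CD47, a partner of the Rh complex, fell by 1.02 and ACHE, which carries the Cartwright antigens, by 1.05. RHCE, at 1.75 and 1.43 FPKM in control and 5.56 and 3.77 FPKM with GNE-987, was called higher, and RHD was not called (log2 fold change 0.21). The reads of RHCE were 98 and 77 in control and 113 and 81 with GNE-987. They overlapped between the groups, but reads are not scaled for depth and the GNE-987 libraries were the shallower pair. RHD and RHCE are near-identical, and reads may be shared between them. The highest carrier, BSG, which carries the Ok antigen, rose by 2.11, CD59 by 2.49, SEMA7A by 2.35 and CD151 by 1.08. CD151 did so with fewer reads, 1968 and 1741 in control and 1475 and 1519 with GNE-987, from the shallower GNE-987 libraries. ACKR1, ART4 and ICAM4 were listed at 0 in all 4 libraries. These 3 and GYPB, XK, CD47, ACHE, RHD and RHCE were named, and the pairs chosen, after their values were seen.

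**Figure D3:**
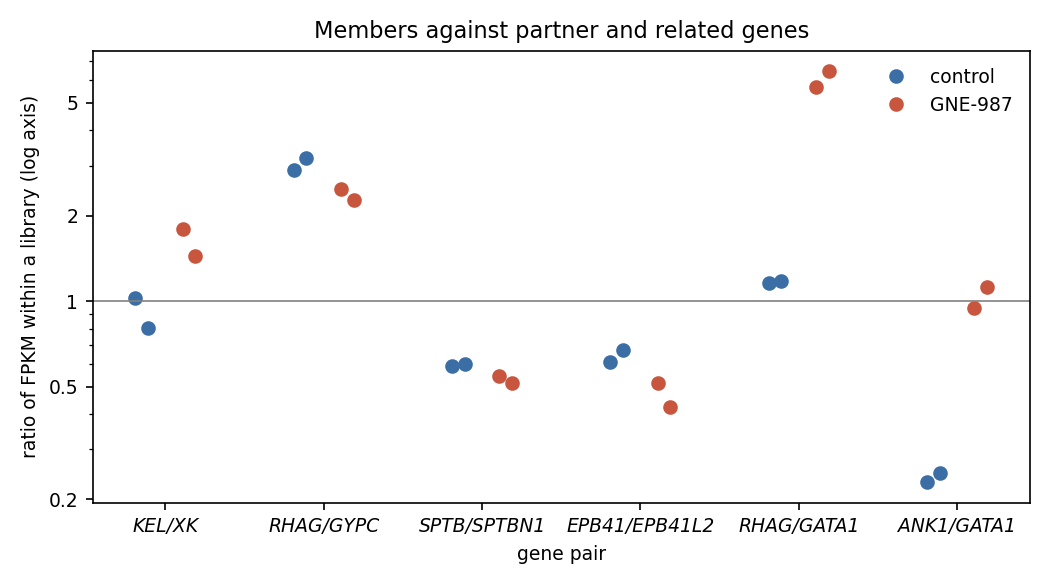
Ratio of FPKM within each library for 6 pairs of a member with another member, a partner or a related gene, on a log axis (points are libraries, n = 2 per group). KEL to XK, RHAG to GATA1 and ANK1 to GATA1 are higher in both GNE-987 libraries, and RHAG to GYPC, EPB41 to EPB41L2 and SPTB to SPTBN1 are lower, the last by the smallest factor.

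Of 13 tested transporters and channels, 5 were called lower and 2 higher, and 12 had an adjusted P value under 0.05 (limma) at any fold change. SLC29A1, the nucleoside transporter of the Augustine blood group, had a log2 fold change of -2.07, the calcium-gated potassium channel KCNN4 of -2.83 and the calcium pump ATP2B4 of -2.80. KCNN4 reached the minimum level only through control. PIEZO1, the mechanosensitive channel and the highest of this list in control, was at 43.2 and 44.3 FPKM in control and 39.7 and 39.6 FPKM with GNE-987, and the glucose transporter SLC2A1 at 33.6 and 32.9 against 21.5 and 22.9 FPKM. Neither passed the fold threshold.
Of 8 glycosyltransferases that build carbohydrate blood groups, 2 were tested and both were called lower. Both reached the minimum level only through control, so their direction was fixed by that minimum and is given as a description. ABO, which makes the A and B antigens, went from 5.77 and 6.21 FPKM to 0.414 and 0.517 FPKM, a log2 fold change of -3.44, and FUT1, which makes their H precursor, from 1.09 and 1.31 FPKM to 0.0275 and 0.0783 FPKM.

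The members have relatives outside the red cell. Of 29 such genes, 11 were tested, of which limma called 0 lower and 4 higher, where 24.9% of all tested genes were called lower and 33.6% higher. Of the 11, 10 had an unadjusted P value under 0.05 (limma), 4 of them lower with a fold change short of the threshold. Over all tested genes, 13244 of 16668 had such a P value. The highest relative of beta spectrin, SPTBN1, was at 15.2 and 18.02 FPKM in control and 11.0 and 11.5 FPKM with GNE-987, above SPTB in each library. SPTB stood at 0.590 and 0.599 times SPTBN1 in control and at 0.544 and 0.516 times with GNE-987. SLC4A2, the widely expressed anion exchanger, was at 31.7 and 34.4 FPKM in control and 23.9 and 25.5 FPKM with GNE-987, far above its red cell relative SLC4A1 in every library.
EPB41L2 was at 12.1 and 12.4 FPKM in control and 10.3 and 10.3 FPKM with GNE-987, and TGM2, an active transglutaminase of the family to which EPB42 belongs, at 8.03 and 7.65 against 9.99 and 10.02 FPKM. ECE1, of the same peptidase family as KEL, was at 5.63 and 6.53 against 4.05 and 3.54 FPKM, a log2 fold change of -0.67. For ankyrin and the Rh glycoproteins no relative was above 0.1 FPKM in any library, the highest being ANK3 and RHBG.
The nonerythroid alpha spectrin SPTAN1 went from 3.58 and 4.04 FPKM to 97.9 and 98.7 FPKM. On log2(FPKM + 0.1) its change of 4.66 was the largest of the tested relatives (adjusted P value 9.97e-05, limma). Without the pseudocount, the ratio of mean FPKM was larger for SPTBN5 (71.9) and EPB41L4A (66.7) than for SPTAN1 (25.8). SPTBN5 rose by 3.76 and EPB41L4A by 3.73, both from under 0.03 FPKM in each control library. These last genes reached the minimum level only through GNE-987 and could be tested only if they were higher there.

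Transcription factors known from red cell development were examined beside the members, with no test of the difference between the lists. Of 12 tested, 11 were called lower and 0 higher, where 24.9% of all tested genes were called lower and 33.6% higher. All 12 had an unadjusted P value under 0.05 with limma, as had 13244 of the 16668 tested genes. The median log2 fold change of the 12 was -2.70, and the largest decreases were those of MYB (-4.26), NFE2 (-4.12) and LYL1 (-3.98). GATA1 was at 124 and 122 FPKM in control and 15.1 and 12.5 FPKM with GNE-987, KLF1 at 85.2 and 85.9 against 27.3 and 24.8 FPKM, and TAL1 at 12.6 and 14.0 against 8.14 and 7.65 FPKM. RHAG stood at 1.16 and 1.18 times the level of GATA1 in control and at 5.68 and 6.46 times with GNE-987, and ANK1 at 0.230 and 0.248 times against 0.945 and 1.12 times. TAL1 was the 1 tested factor that did not pass the fold threshold (log2 fold change -0.74), within the range of the members.

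**Figure D4:**
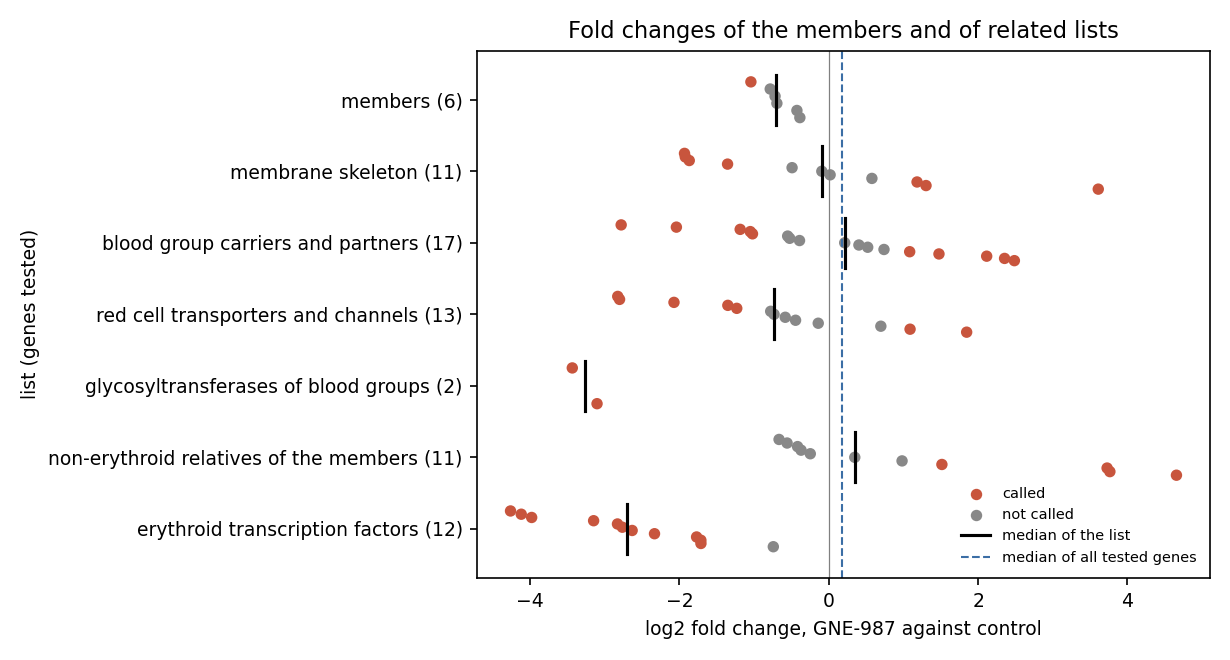
Log2 fold change (treated over control), as deposited, for the tested genes of each list (number in brackets); red points were called, grey points were not, black bars are list medians and the dashed line is the median of all tested genes. The 6 members lie between -1.04 and -0.39, while the skeleton, carrier and transporter lists spread to both sides. Both tested glycosyltransferases lie below 0, and 11 of 12 erythroid factors were called lower.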

How the data were processed

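RNA was sequenced from 2 control and 2 GNE-987 libraries, grouped by their titles. Dose and time come from the study's figure legend. The authors filtered reads, mapped them with HISAT2 2.0.5 to hg38 according to the submitters' processing notes, and deposited FPKM values per gene. The counting program and annotation are not given in the sources used here. Of 58735 identifiers, 58207 are in GENCODE release 44. Values were tested as log2(FPKM + 0.1) by moderated linear models without a replicate block (limma 3.58.1, trended variance prior, R 4.3.3) for genes whose mean reached 0.5 FPKM, with Benjamini-Hochberg adjustment over all of them. The study's methods name a count model, and the table used here holds FPKM. Fold changes on this scale understate those of low genes.

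Reads were recovered from FPKM steps (tolerance 0.01 of a read). At GENCODE exon lengths all 4 values were whole for 53% of genes above 0, SPTB and EPB41 among them. For the 6 other members another whole length was searched for, which is a weaker test. Totals leave out 467 genes. Steps were tested on simulated data, where 193 of 200 changed genes among 13398 were called with the right sign and 0 others.

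Alternatives were other pseudocounts, minimum levels, scalings and thresholds, voom on recovered reads, a replicate block and leaving out each library. The members, lists and tests were chosen with earlier results of these data known. From each list the text names up to 3 genes with the highest control level and up to 3 called genes with the largest change, the highest relative of each family, and genes that overlap or flank a member. Some genes that this rule would name are not reported here. Promoter letters are from RefSeq (GRCh38.p14), and counts of matches are descriptions.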

Additional observations from a re-analysis of the deposited data

How the results depend on the processing

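As deposited, 1 of the 6 tested members was called lower. The number was 0 with a pseudocount of 1, with median-ratio scaling and when limma tested for more than a 2-fold change, 2 with quantile normalization, and 6 with scaling to reads on genes, with scaling to GAPDH and with limma-voom on recovered reads. With no minimum level 1 member, SLC4A1, was called higher, and 0 were with the other alternatives. Among all tested genes, 4148 were called lower and 5602 higher as deposited. Scaling to GAPDH gave 9738 and 3031, scaling to reads on genes 6645 lower, limma-voom 6692 lower, and no minimum level 8757 higher. On the wider list, 16 were called lower and 10 higher, against 32 and 1 with scaling to GAPDH. The number called higher was 5 with scaling to reads on genes and with limma-voom, and 6 when limma tested for more than a 2-fold change. Over all tested genes the numbers called higher were 4181, 4242 and 4837 in that order. The scalings differ by what each library is divided by, and why these totals differ between groups was not tested. No alternative turned the direction of any of the 6 tested members. EPB42 and SLC4A1 were fitted only without a minimum level, and no other scaling was run for them. Leaving out each library in turn, with the lone library of a group assumed to vary like the other group, gave 1 member called lower and 0 higher, with log2 fold changes of ANK1 from -1.08 to -1.002.

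Replicate numbers were not shown to pair the libraries, since deviations of same-numbered libraries from their group means correlated at 0.00537 over genes. In the fit with a replicate block, 1 member was called lower and 0 higher, and the adjusted P value of KEL was 0.0311 (limma) in place of 0.0535. With 2 libraries per group, depth limits the genes under about 1 FPKM, and EPB42 rests on 6 reads or fewer per library.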
